A study of Homo sapiens with 6 samples.

Results

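Genes of the Wnt and beta-catenin pathway were followed in SW480 colorectal cancer cells after knockdown of PCYT2, which encodes the enzyme that makes CDP-ethanolamine in phosphatidylethanolamine synthesis. The group was chosen by symbol with earlier results of these data known, as were the lists of other pathway genes below. Their shares of called genes are thus not from lists blind to the data. The group holds 37 genes: pathway components and genes known as beta-catenin targets. They were found through their Ensembl identifiers among 19437 genes in the expression tables, and all 37 were above 0 in the 6 libraries and passed the expression limit that left 12755 genes for testing. SW480 is an established human colorectal cancer line with a truncated APC. The control cells carried a nontargeting hairpin (shNT, 2 libraries), and the knockdown cells carried 1 of 2 lentiviral hairpins targeting PCYT2, named shPcyt2-1 (2 libraries) and shPcyt2-2 (2 libraries). By the study's methods the hairpins were delivered from pLKO.1 and infected cells were selected with puromycin, so each group is an infected population of a single line. Whether the 2 libraries of a group came from separate cultures is not stated, and the p-values measure only the spread between these libraries.

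Wnt ligands bind Frizzled receptors and the coreceptors LRP5 and LRP6 and act through dishevelled to hold back the destruction complex of APC, axin and kinases, which marks beta-catenin for degradation. Beta-catenin that escapes enters the nucleus and binds TCF/LEF factors at target genes, several of which encode inhibitors that feed back on the pathway. In most colorectal cancers the destruction complex is damaged, commonly by loss of APC, and the pathway runs without much ligand.

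Expression was taken as FPKM, fragments counted over a gene relative to its length in kilobases and to library size. The values sum to between 396467 and 402612 over the genes of a library, and their unit is inferred. The number of reads behind these values is unknown. Differences are given as log2 fold changes of FPKM + 1 from limma, which understate the change of low genes. A gene was called changed at an adjusted p under 0.05 over the 12755 tested genes. Both knockdown comparisons use the same 2 shNT libraries.

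PCYT2 itself was at 11.6 and 13.8 FPKM in the shNT libraries, 7.11 and 7.36 FPKM with shPcyt2-1 and 6.71 and 6.18 FPKM with shPcyt2-2. Both shNT libraries were above all 4 knockdown libraries. Its exons overlap those of ANAPC11 on the opposite strand (mean 97.4 FPKM), and the counting is not stated to use strand, so reads of the pair cannot be told apart. In bulk RNA, fewer cells of a type and less RNA per cell cannot be told apart either. The labelled cell type was checked with its markers. Of 10 epithelial and intestinal markers 9 were tested and found in every library, among them EPCAM (258 to 312 FPKM), KRT8 (2734 to 3861 FPKM) and VIL1 (38.8 to 44.7 FPKM), whereas KRT20 was at 0.0950 FPKM or less. KRT8 was the most abundant of the 10, whose summed level was 8244 and 8807 FPKM with shNT, 8458 and 8551 FPKM with shPcyt2-1 and 6285 and 6581 FPKM with shPcyt2-2. This sum was lower in both shPcyt2-2 libraries than in the other 4, and KRT8, KRT18 and KRT19 made 93.4% to 95.8% of it. These keratin genes were called lower with shPcyt2-2 (-0.45 to -0.41, limma adjusted p between 0.00314 and 0.00539), each call being lost without shPcyt2-2 replicate 1 and without the expression limit. The other 6 tested markers went different ways. CDX2, an intestinal identity factor, was at 15.5 and 16.9 FPKM with shNT, 10.01 and 9.88 FPKM with shPcyt2-1 and 16.03 and 15.1 FPKM with shPcyt2-2, a fall of 0.65 with shPcyt2-1 (limma adjusted p = 0.00136). HNF4A, another such factor, was at 31.9 and 36.1 FPKM with shNT and between 24.8 and 25.4 FPKM in the 4 knockdown libraries. HNF4A fell by 0.43 with shPcyt2-1 (limma adjusted p = 0.00501) and by 0.40 with shPcyt2-2 (limma adjusted p = 0.0143), where the call was lost without shNT replicate 2 or either shPcyt2-2 library (-0.40 to -0.32, limma adjusted p between 0.0574 and 0.0969) and without the expression limit. EPCAM, CDH1, VIL1 and CDX1 were not called with either hairpin against shNT. The part of these shifts in the other results was not tested. Fibroblast markers summed to at most 4.10 FPKM, led by LUM with shPcyt2-1 and by COL1A1 in the other libraries, with COL1A2 at 0.0305 FPKM or less. Endothelial markers summed to at most 0.769 FPKM, led by CDH5. Leukocyte markers summed to between 18.1 and 25.2 FPKM, of which CD68 alone gave 15.99 to 22.7 FPKM and CD3E 0.0627 FPKM or less. The fibroblast sum was 2.25 and 2.44 FPKM with shNT and between 3.56 and 4.10 FPKM in the knockdown libraries, LUM rose by 0.81 with shPcyt2-1 (limma adjusted p = 0.00189), and their part was not tested either.

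In shNT cells the 37 genes had a median level of 19.4 FPKM, against 6.89 FPKM over all tested genes. The mean was at least 100 FPKM for 8 of them: CTNNB1 (beta-catenin), MYC, APCDD1, NOTUM, CCND1, DVL1, SP5 and BAMBI. Another 10 were under 5 FPKM, among them APC, TCF7L1, FZD7 and the stem cell marker LGR5, which was the lowest at 0.470 ± 0.017 FPKM (SD, n = 2). FPKM is scaled to gene length, so these levels can be set side by side.

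With shPcyt2-1, 15 of the 37 genes changed (40.5%), 3 higher and 12 lower. Among all tested genes 26.7% were called, 16.6% higher and 10.1% lower (2112 and 1294 genes, which became 1479 and 1714 with median-ratio scaling of the libraries). The median log2 fold change of the 37 was -0.10, against 0.067 over all genes. AXIN1, AXIN2, TCF7, TCF7L1, DVL1, NKD1, NOTUM, APCDD1, DKK3, ASCL2, SP5 and CCND1 fell, and DKK1, SOX4 and PROX1 rose. The libraries of the 2 groups did not overlap for 33 genes, 13 above and 20 below shNT. Of all tested genes 69.0% did not overlap, 43.3% above and 25.6% below. At an unadjusted p under 0.05, 22 of the 37 passed, against 40.9% of all genes. With median-ratio scaling 3 of the 37 were called higher and 15 lower. With the trend with GC content and length taken out, 4 were higher and 9 lower, where 2261 and 1184 of all tested genes were. The background was not matched for level, and the median level of the 37 was the higher.

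With shPcyt2-2, 7 of the 37 changed (18.9%), 3 higher and 4 lower, against 12.5% of all tested genes (7.71% higher, 4.76% lower, or 984 and 607 genes, which became 760 and 849 with median-ratio scaling, where 1 of the 37 was higher and 4 were lower). NOTUM, DKK1 and CCND1 rose, and TCF7L1, LRP5, DVL1 and SOX4 fell. The median log2 fold change was 0.058, against 0.044 over all genes. The libraries did not overlap with shNT for 13 genes above and 9 below, against 57.5% of all genes (35.1% above, 22.4% below). At an unadjusted p under 0.05, 13 of the 37 passed, against 31.1% of all genes.

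The hairpins were then compared with each other, without the shNT libraries in either mean. AXIN2, LEF1, FZD7, NKD1, NOTUM, APCDD1, DKK3 and CCND1 were higher with shPcyt2-2 than with shPcyt2-1, and LRP5 and SOX4 were lower. These 10 of 37 make 27.0%, and 27.2% of all tested genes differed between the hairpins (12.9% higher, 14.3% lower), so the share is that of the background. The median difference of the 37 was 0.10, against -0.023 over all genes, and 19 genes lay above and 8 below without overlap, against 67.3% of all genes (30.7% above, 36.5% below). At an unadjusted p under 0.05, 16 of the 37 passed, against 40.3%.

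With all 4 knockdown libraries pooled against shNT, limma called 0 of the 37 and 0.00784% of all tested genes. At an unadjusted p under 0.05, 10 of the 37 passed, against 16.7% of all genes. With the average of both hairpins estimated in the fit with 3 groups instead, 7 of the 37 were called (18.9%), 1 higher and 6 lower, against 16.9% of all tested genes (11.0% higher, 5.9% lower). The 4 knockdown libraries lay above both shNT libraries for 7 genes (CTNNB1, TCF7L2, BCL9, FZD6, LRP6, LGR5 and DKK1) and below for 8 (AXIN1, TCF7, TCF7L1, BCL9L, LRP5, DVL1, DVL2 and DKK3), against 30.2% of all genes (20.7% above, 9.48% below). Of the 32 calls in the single hairpin and hairpin against hairpin comparisons, 14 held under the 8 other settings of the fit and without any single library. They were NKD1, NOTUM, DKK3, SOX4 and CCND1 with shPcyt2-1 and between the hairpins, TCF7L1 with shPcyt2-1, AXIN2 and FZD7 between the hairpins, and CCND1 with shPcyt2-2.

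Other calls were lost under some settings of the fit. Without the expression limit, which raises the number of genes tested to 19437, the calls with shPcyt2-2 were lost for all members other than CCND1, and for each of the 8 other pathway genes called with that hairpin. The same setting ended the calls of DVL1, APCDD1, ASCL2, SP5 and PROX1 with shPcyt2-1 and of LEF1, LRP5 and APCDD1 between the hairpins. Without the mean-variance trend, DVL1, SP5 and PROX1 with shPcyt2-1, DVL1, NOTUM, DKK1 and SOX4 with shPcyt2-2 and LRP5 between the hairpins were not called. With only the 2 groups compared in the fit, DVL1 and SP5 with shPcyt2-1 and TCF7L1, DKK1 and SOX4 with shPcyt2-2 were not called.

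**Figure D1:**
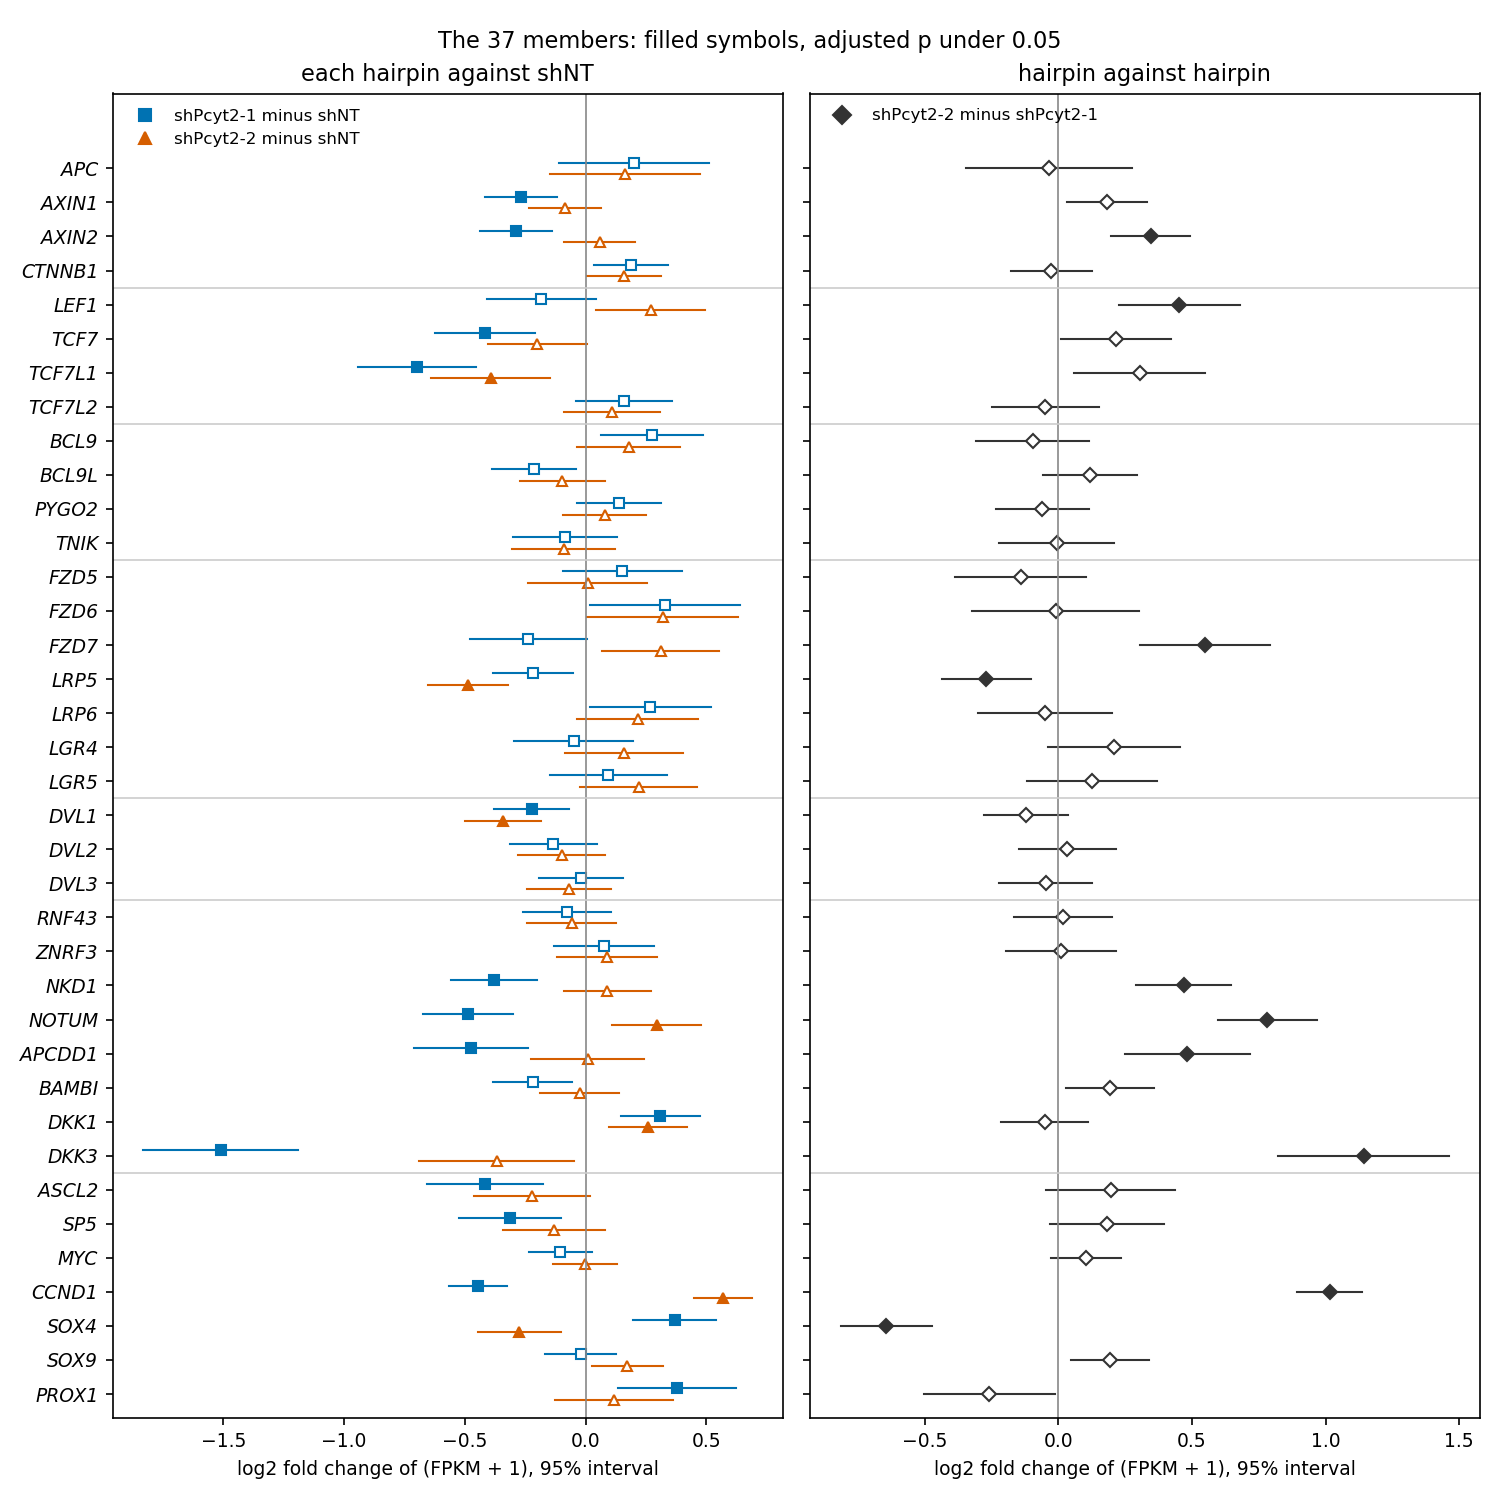
Log2 fold change of FPKM + 1 with its 95% interval for the 37 genes, in blocks from the destruction complex at the top to the target genes at the bottom. The left panel shows each hairpin against shNT and the right panel shPcyt2-2 against shPcyt2-1, and filled symbols had a limma adjusted p under 0.05. Of the genes called with both hairpins, CCND1, NOTUM and SOX4 lie on opposite sides of 0 and TCF7L1, DVL1 and DKK1 on the same side.

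Among the ligands, genes for Wnt proteins were at low levels, and 5 of the 12 tested fell with shPcyt2-1. The 19 Wnt ligand genes summed to 46.4 and 49.8 FPKM with shNT, 31.9 and 33.0 FPKM with shPcyt2-1 and 56.8 and 53.4 FPKM with shPcyt2-2. The 3 groups do not overlap in this sum. Of the 12 ligand genes above the expression limit, 5 were lower with shPcyt2-1, where 10.1% of all tested genes were lower, and 0 were higher (8 at an unadjusted p under 0.05). With shPcyt2-2, 1 was higher, where 7.71% of all genes were, and 0 were lower (3 unadjusted). Between the hairpins 7 were higher with shPcyt2-2, where 12.9% of all genes were, and 0 were lower (8 unadjusted, all by limma). WNT6 was at 8.32 and 11.6 FPKM with shNT, 4.79 and 4.56 FPKM with shPcyt2-1 and 13.4 and 12.3 FPKM with shPcyt2-2. WNT6 fell by 0.93 on the log2 scale with shPcyt2-1 (limma adjusted p = 0.00233), and the hairpins differed by 1.29 (limma adjusted p = 0.000347). The shPcyt2-1 libraries were the lowest and the shPcyt2-2 libraries the highest. WNT4 went from 1.50 and 1.73 FPKM with shNT to 0.310 and 0.438 FPKM with shPcyt2-1, a fall of 0.93 (limma adjusted p = 0.00131), and stood at 1.47 and 1.25 FPKM with shPcyt2-2. WNT7B fell by 0.67 with shPcyt2-1 (limma adjusted p = 0.00701). WNT10A was at 4.88 and 5.21 FPKM with shNT, 2.92 and 3.15 FPKM with shPcyt2-1 and 6.997 and 6.47 FPKM with shPcyt2-2, a difference of 0.94 between the hairpins (limma adjusted p = 0.000348). The call of its rise with shPcyt2-2 over shNT (0.35, limma adjusted p = 0.0452) was lost on leaving out any 1 of the 6 libraries (log2 values of 0.31 to 0.40, limma adjusted p between 0.0726 and 0.184). WLS, the carrier that takes Wnt proteins to the cell surface, rose by 0.52 with shPcyt2-1 (limma adjusted p = 0.00553). None of the 3 genes for R-spondins, ligands of the LGR receptors, that the tables hold was above the limit.

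**Figure D2:**
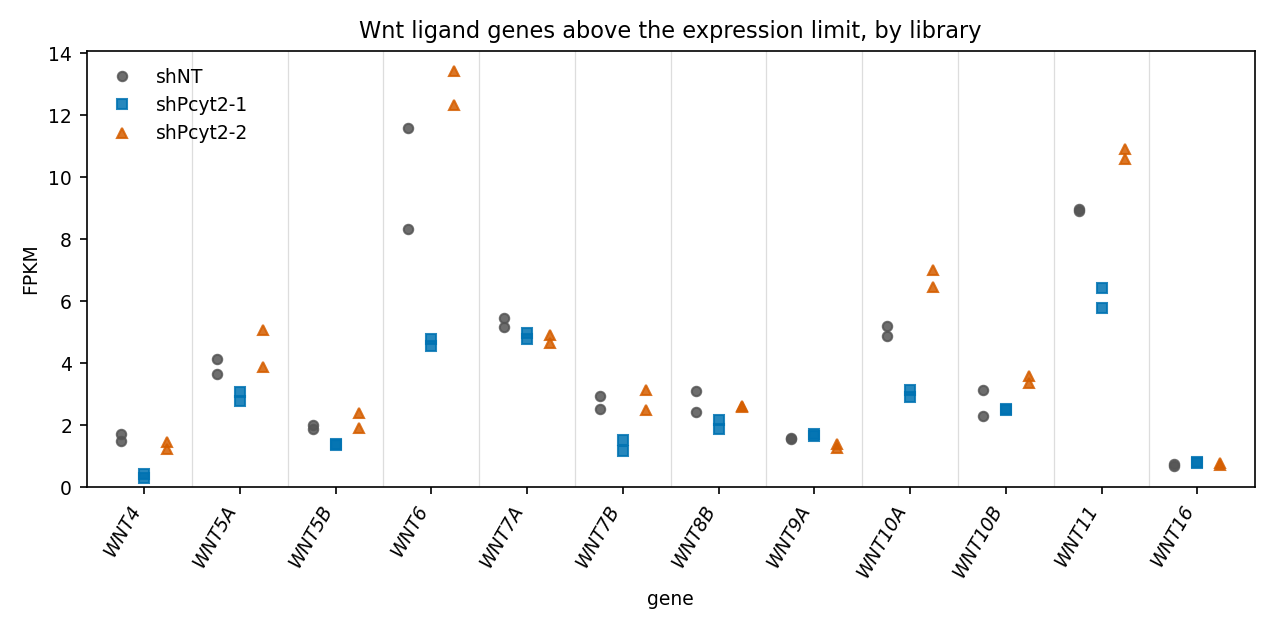
FPKM of the 12 Wnt ligand genes above the expression limit, with 1 point per library and 2 libraries per group. Both shPcyt2-1 libraries lie below the other 4 for WNT4, WNT5A, WNT5B, WNT6, WNT7B, WNT8B, WNT10A and WNT11, of which WNT4, WNT6, WNT7B, WNT10A and WNT11 were called with shPcyt2-1. Of all tested genes 25.6% had both shPcyt2-1 libraries below both shNT libraries, and the share below the other 4 was not counted.

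Of the 7 receptor and coreceptor members limma called 0 with shPcyt2-1, against 26.7% of all tested genes (3 at an unadjusted p under 0.05, against 40.9%), 1 with shPcyt2-2 (14.3%, against 12.5% of all tested genes) and 2 between the hairpins (28.6%, against 27.2%). LRP5, the coreceptor that with LRP6 passes the signal to axin, was at 45.9 and 51.2 FPKM with shNT, 40.3 and 42.8 FPKM with shPcyt2-1 and 34.4 and 34.2 FPKM with shPcyt2-2. The 3 groups do not overlap and shPcyt2-2 was the lowest. LRP5 fell by 0.49 with shPcyt2-2 (standard error 0.074, limma adjusted p = 0.00691), a call that was lost without shPcyt2-2 replicate 1 (-0.49, limma adjusted p = 0.0678) and without the expression limit (limma adjusted p = 0.0569). LRP5 was also lower by 0.27 with shPcyt2-2 than with shPcyt2-1 (limma adjusted p = 0.0249), and this call was lost on leaving out any of the 4 knockdown libraries (-0.31 to -0.23, limma adjusted p between 0.0666 and 0.162). LRP6, which is much lower, was at 3.35 and 2.94 FPKM with shNT and between 3.51 and 4.16 FPKM in the 4 knockdown libraries, with no call. FZD7, a Frizzled receptor, was at 1.33 and 1.198 FPKM with shNT, 0.876 and 0.962 FPKM with shPcyt2-1 and 1.69 and 1.93 FPKM with shPcyt2-2. Its libraries fell in 3 separate pairs, and the hairpins differed by 0.55 (standard error 0.11, limma adjusted p = 0.00629), while neither hairpin passed against shNT (limma adjusted p = 0.13 and 0.0871). FZD5, FZD6, LGR4 and LGR5 had log2 fold changes between -0.050 and 0.33 with either hairpin and no call.

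Of the other Frizzled and Wnt receptor genes, 10 of 12 were tested. With shPcyt2-1, 2 were lower and 0 higher (20%, against 26.7% of all tested genes), and with shPcyt2-2 1 was lower and 0 higher (10%, against 12.5%). Between the hairpins 4 were higher and 1 lower with shPcyt2-2 (50%, against 27.2%). LGR6, an R-spondin receptor, was the most abundant of the LGR4, LGR5 and LGR6 family, at 8.36 and 10.001 FPKM with shNT, 5.30 and 4.92 FPKM with shPcyt2-1 and 10.8 and 9.36 FPKM with shPcyt2-2. LGR6 fell by 0.73 with shPcyt2-1 (limma adjusted p = 0.0029) and differed by 0.86 between the hairpins (limma adjusted p = 0.00088). The shPcyt2-2 libraries overlap those of shNT. RYK, a Wnt receptor of another class, was at 12.2 and 11.7 FPKM with shNT, 14.7 and 14.2 FPKM with shPcyt2-1 and 9.17 and 8.19 FPKM with shPcyt2-2, and the hairpins differed by -0.68 (limma adjusted p = 0.00081). It fell by 0.42 with shPcyt2-2 (limma adjusted p = 0.0179), a call lost without shNT replicate 2 or either shPcyt2-2 library (-0.49 to -0.34, limma adjusted p between 0.0601 and 0.0703). ROR2 (-0.33 with shPcyt2-1), FZD2 (0.37 between the hairpins) and FZD10 (0.35 between the hairpins) were called, and each of these calls was lost without at least 3 of the libraries.

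Dishevelled relays the signal from receptor to axin, and DVL1 had the highest level of the 3 genes. DVL1 was at 102 and 114 FPKM with shNT, 90.1 and 94.2 FPKM with shPcyt2-1 and 83.3 and 86.2 FPKM with shPcyt2-2. Each knockdown library was lower than either shNT library. DVL1 fell by 0.34 with shPcyt2-2 (limma adjusted p = 0.0177) and by 0.22 with shPcyt2-1 (limma adjusted p = 0.0422). The second of these calls was lost on leaving out any library other than shNT replicate 1 (-0.26 to -0.14, limma adjusted p between 0.0619 and 0.235), and the value was 0.0073 once the trend with GC content and length had been taken out (limma adjusted p = 0.916). The first call was lost without shNT replicate 2 or either shPcyt2-2 library (-0.37 to -0.26, limma adjusted p between 0.0588 and 0.124), and the value was -0.18 after that correction. DVL1 overlaps TAS1R3 on the opposite strand (mean 15.999 FPKM). DVL2 and DVL3 were between 17.6 and 21.1 FPKM in the 6 libraries, with no call.

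In the destruction complex the axins fell with shPcyt2-1, and APC and beta-catenin were not called. APC, the scaffold that is truncated in these cells, was at 1.92 and 1.51 FPKM with shNT, 2.24 and 1.98 FPKM with shPcyt2-1 and 2.39 and 1.71 FPKM with shPcyt2-2. The fitted change on the log2 scale was 0.20 when shPcyt2-1 was set against shNT (limma adjusted p = 0.305), and it came to 0.16 when shPcyt2-2 was (limma adjusted p = 0.446). CTNNB1 was at 287 and 285 FPKM with shNT, 339 and 313 FPKM with shPcyt2-1 and 338 and 303 FPKM with shPcyt2-2. All 4 knockdown libraries of CTNNB1 lay above both shNT libraries, but neither hairpin passed (0.19, limma adjusted p = 0.07, and 0.16, limma adjusted p = 0.145). AXIN2, an axin that is itself a beta-catenin target, was at 66.3 and 67.1 FPKM with shNT, 54.2 and 54.7 FPKM with shPcyt2-1 and 72.8 and 66.3 FPKM with shPcyt2-2. AXIN2 fell by 0.29 with shPcyt2-1 (standard error 0.066, limma adjusted p = 0.014) and was higher by 0.35 with shPcyt2-2 than with shPcyt2-1 (limma adjusted p = 0.0054). The first of these calls was lost without either shPcyt2-1 library, with values of -0.29 and -0.28 (limma adjusted p between 0.0621 and 0.0903). AXIN1, the core scaffold, was between 26.7 and 33.6 FPKM and fell by 0.27 with shPcyt2-1 (limma adjusted p = 0.0183). That call was lost without shNT replicate 2 or either shPcyt2-1 library (-0.29 to -0.24, limma adjusted p between 0.0638 and 0.127), and the value was -0.060 once the trend with GC content and length had been taken out.

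Of 14 other genes of the destruction complex and its regulators, 4 rose and 0 fell with shPcyt2-1 (28.6%, against 26.7% of all tested genes), and 1 rose with shPcyt2-2 (7.14%, against 12.5%). TNKS2, a tankyrase that marks axin for degradation, was at 6.81 and 6.14 FPKM with shNT, 10.8 and 10.9 FPKM with shPcyt2-1 and 9.90 and 8.87 FPKM with shPcyt2-2. All 4 knockdown libraries were above shNT. TNKS2 rose by 0.66 with shPcyt2-1 (limma adjusted p = 0.00214) and by 0.47 with shPcyt2-2 (limma adjusted p = 0.0155), the latter call lost without shNT replicate 2 or shPcyt2-2 replicate 1 (0.40 to 0.41, limma adjusted p between 0.0804 and 0.108). FBXW11, part of the ubiquitin ligase for beta-catenin (0.34), and PPP2R5A, a phosphatase subunit (0.25), were called with shPcyt2-1, each losing the call without at least 3 of the libraries. Between the hairpins CCDC88C (-0.45) and the kinase gene GSK3A (-0.27) were lower with shPcyt2-2. The CCDC88C call was lost without shPcyt2-1 replicate 1 (-0.42, limma adjusted p = 0.0696), and that of GSK3A on leaving out any of the 4 knockdown libraries (-0.27 to -0.26, limma adjusted p between 0.054 and 0.0849).

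Of the 4 TCF/LEF factors, through which beta-catenin reaches DNA, 2 fell with shPcyt2-1, where 10.1% of all tested genes were lower. LEF1 and TCF7 (TCF-1) were the most abundant. TCF7L1 (TCF-3), which mostly represses target genes, was at 2.35 and 2.38 FPKM with shNT, 1.10 and 1.05 FPKM with shPcyt2-1 and 1.41 and 1.73 FPKM with shPcyt2-2. The knockdown libraries all lay below shNT, and TCF7L1 fell by 0.70 with shPcyt2-1 (standard error 0.11, limma adjusted p = 0.00334). It fell by 0.39 with shPcyt2-2 (limma adjusted p = 0.0466), a call lost on leaving out any 1 of the 6 libraries (-0.48 to -0.30, limma adjusted p between 0.0549 and 0.189). TCF7 was at 13.1 and 15.4 FPKM with shNT, 10.3 and 10.5 FPKM with shPcyt2-1 and 12.4 and 12.1 FPKM with shPcyt2-2. TCF7 fell by 0.42 with shPcyt2-1 (limma adjusted p = 0.0121), a call lost without shNT replicate 2 or shPcyt2-1 replicate 1 (-0.40 to -0.31, limma adjusted p between 0.0612 and 0.07). TCF7 overlaps SKP1 on the opposite strand (mean 19.8 FPKM). LEF1 was at 14.6 and 14.2 FPKM with shNT, 12.2 and 12.9 FPKM with shPcyt2-1 and 19.4 and 15.8 FPKM with shPcyt2-2. It passed between the hairpins (0.45, limma adjusted p = 0.0105) and in neither comparison with shNT, and the call was lost without shPcyt2-1 replicate 1 or shPcyt2-2 replicate 1 (0.31 to 0.42, limma adjusted p between 0.056 and 0.0591). TCF7L2 (TCF-4) was between 5.53 and 6.59 FPKM with no call. As a share of the FPKM of these 4 genes, LEF1 was 39.3% with shNT, 41.2% with shPcyt2-1 and 46.8% with shPcyt2-2 (means of 2 libraries), and TCF7L1 was 6.45%, 3.53% and 4.198%.

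BCL9, BCL9L, PYGO2 and TNIK, which help beta-catenin activate transcription, gave 0 calls by limma in the 3 comparisons, with 2, 0 and 0 at an unadjusted p under 0.05 in the order given above, where 26.7%, 12.5% and 27.2% of all tested genes were called and 40.9%, 31.1% and 40.3% passed unadjusted. BCL9 was at 3.53 and 3.77 FPKM with shNT and between 4.19 and 4.63 FPKM in the knockdown libraries. BCL9L was between 20.9 and 26.6 FPKM, PYGO2 between 16.7 and 19.5 FPKM and TNIK between 8.43 and 9.96 FPKM. PYGO2 shares exon positions with SHC1 on the same strand.

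Other nuclear regulators (19 of 20 tested) gave 3 higher and 5 lower genes with shPcyt2-1 (42.1%, against 26.7% of all tested genes) and 1 lower with shPcyt2-2 (5.26%, against 12.5%). Between the hairpins 6 were higher and 0 lower with shPcyt2-2 (31.6%, against 27.2%). TLE2, a Groucho corepressor that binds TCF factors, was at 1.96 and 1.61 FPKM with shNT, 0.326 and 0.723 FPKM with shPcyt2-1 and 1.55 and 1.65 FPKM with shPcyt2-2. TLE2 fell by 0.88 with shPcyt2-1 (limma adjusted p = 0.00365), and both shPcyt2-1 libraries were below the other 4. The corepressor CTBP1 was at 66.7 and 73.5 FPKM with shNT, 47.1 and 47.8 FPKM with shPcyt2-1 and 59.5 and 54.8 FPKM with shPcyt2-2. CTBP1 fell by 0.55 with shPcyt2-1 (limma adjusted p = 0.00169) and by 0.29 with shPcyt2-2 (limma adjusted p = 0.0341), the latter call lost without shNT replicate 2 or either shPcyt2-2 library (-0.35 to -0.22, limma adjusted p between 0.1 and 0.14). SMARCA4, the ATPase of the BAF chromatin remodeler, fell by 0.46 with shPcyt2-1 (limma adjusted p = 0.00364), or by 0.28 with the GC content and length trend taken out, and remained called. TBL1XR1 (0.46), CDC73 (0.45) and HDAC1 (0.24) were called higher with shPcyt2-1, and each lost the call without at least 3 of the libraries.

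Of the 8 negative feedback genes and secreted inhibitors among the members, 4 were lower and 1 higher with shPcyt2-1, where 10.1% of all tested genes were lower and 16.6% higher. DKK3, a Dickkopf family gene whose relation to Wnt signaling is debated, was at 4.65 and 4.89 FPKM with shNT, 0.979 and 1.07 FPKM with shPcyt2-1 and 4.198 and 2.84 FPKM with shPcyt2-2. The shPcyt2-1 libraries stood far below the other 4, and those of shPcyt2-2 lay below shNT and apart from each other. DKK3 fell by 1.51 with shPcyt2-1 (standard error 0.14, limma adjusted p = 0.000497), where it had the largest change of the 37, and the hairpins differed by 1.14 (limma adjusted p = 0.000762). NOTUM, the enzyme that removes the lipid from Wnt proteins, was at 129 and 153 FPKM with shNT, 99.8 and 100 FPKM with shPcyt2-1 and 180 and 166 FPKM with shPcyt2-2. Its 3 groups did not overlap. NOTUM fell by 0.49 with shPcyt2-1 (standard error 0.082, limma adjusted p = 0.00423) and was higher by 0.78 with shPcyt2-2 than with shPcyt2-1 (limma adjusted p = 0.000362). It rose by 0.29 with shPcyt2-2 over shNT (limma adjusted p = 0.0469), a call lost without shNT replicate 1 or either shPcyt2-2 library (0.17 to 0.35, limma adjusted p between 0.0838 and 0.246) and with median-ratio scaling (0.24, limma adjusted p = 0.0967). Once the trend with GC content and length had been taken out, NOTUM was at -0.26 with shPcyt2-1 and 0.46 with shPcyt2-2, both called.

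NKD1, which binds dishevelled and holds the pathway back, was at 50.4 and 54.5 FPKM with shNT, 40.3 and 39.8 FPKM with shPcyt2-1 and 59.8 and 52.1 FPKM with shPcyt2-2. Both shPcyt2-1 libraries were below the other 4, with a fall of 0.38 (limma adjusted p = 0.01) and a difference between hairpins of 0.47 (limma adjusted p = 0.00322). APCDD1, a membrane protein that binds Wnt, was at 161 and 184 FPKM with shNT, 127 and 120 FPKM with shPcyt2-1 and 194 and 155 FPKM with shPcyt2-2. The libraries of shNT and shPcyt2-2 overlap. APCDD1 fell by 0.47 with shPcyt2-1 (limma adjusted p = 0.0121), a call lost without shNT replicate 2 (-0.38, limma adjusted p = 0.0668) and without the expression limit (limma adjusted p = 0.0794), and the call of the hairpin difference of 0.48 (limma adjusted p = 0.00952) was lost without shPcyt2-2 replicate 1 (0.32, limma adjusted p = 0.0617) and without the limit (limma adjusted p = 0.0704). DKK1, which blocks LRP5 and LRP6, was between 23.4 and 24.5 FPKM with shNT and between 27.7 and 30.4 FPKM in the 4 knockdown libraries. It rose by 0.31 with shPcyt2-1 (limma adjusted p = 0.0153) and by 0.26 with shPcyt2-2 (limma adjusted p = 0.0482). The first call was lost without either shPcyt2-1 library (0.29 to 0.33, limma adjusted p between 0.0571 and 0.116) and the second on leaving out any 1 of the 6 libraries (0.20 to 0.31, limma adjusted p between 0.0689 and 0.226). BAMBI, RNF43 and ZNRF3, of which the last 2 are ubiquitin ligases that remove Frizzled from the surface, were not called, and RNF43 shares exon positions with SUPT4H1.

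Of 12 other genes for inhibitors of Wnt outside the cell 5 were tested, among them the membrane receptors of Dickkopf proteins KREMEN1 and KREMEN2, and with shPcyt2-1 2 fell and 1 rose, where 10.1% of all tested genes were lower and 16.6% higher. SFRP5, a decoy for Wnt ligands, was at 6.72 and 7.59 FPKM with shNT, 2.44 and 2.45 FPKM with shPcyt2-1 and 7.07 and 6.08 FPKM with shPcyt2-2. SFRP5 fell by 1.24 with shPcyt2-1 (limma adjusted p = 0.000358), and shPcyt2-2 overlapped shNT. SOSTDC1, a small antagonist, rose from 0.992 and 0.754 FPKM to 1.90 and 2.03 FPKM with shPcyt2-1 (0.66, limma adjusted p = 0.00451). DKK4, itself a beta-catenin target, was at 337 and 329 FPKM with shNT, 286 and 293 FPKM with shPcyt2-1 and 322 and 292 FPKM with shPcyt2-2, and fell by 0.20 with shPcyt2-1 (limma adjusted p = 0.039), a call lost on leaving out any of the 4 libraries of that comparison (-0.22 to -0.18, limma adjusted p between 0.0651 and 0.219).

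**Figure D3:**
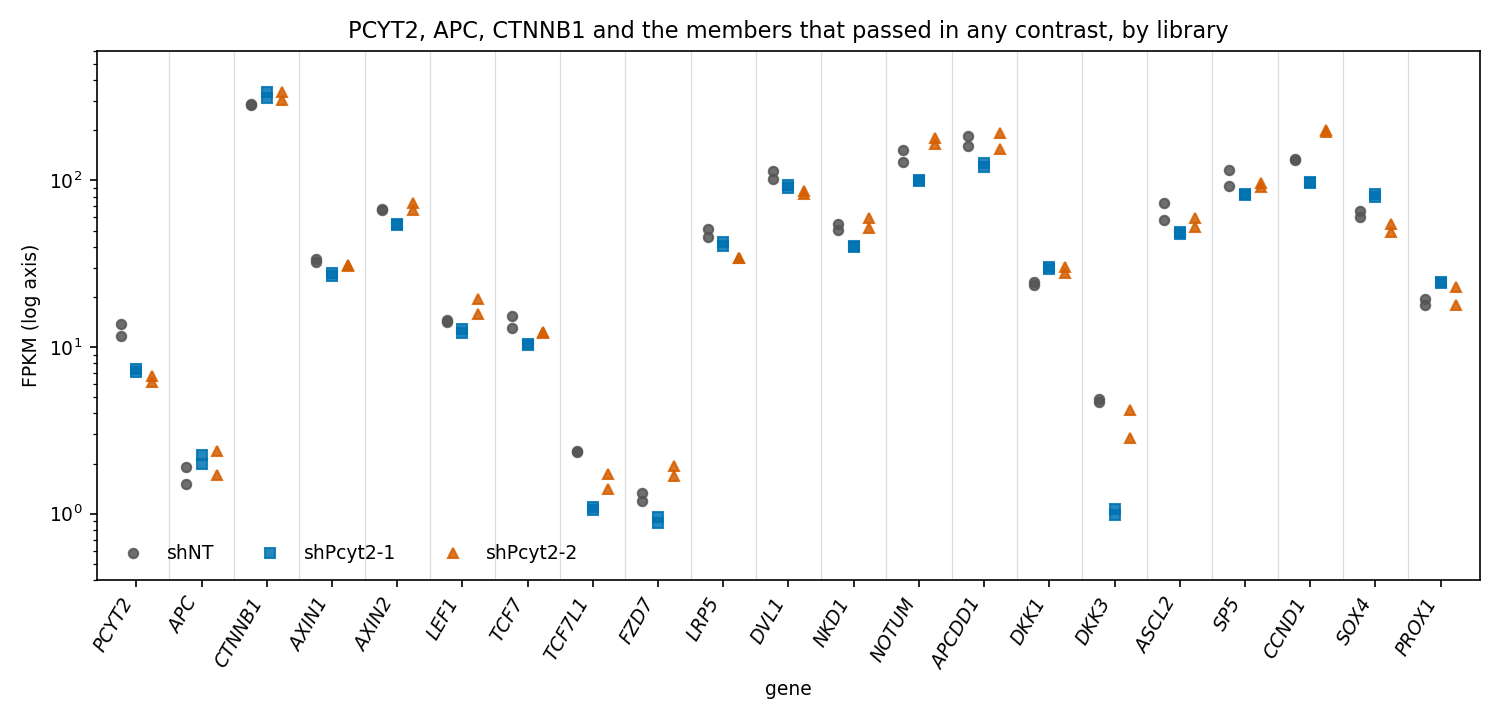
FPKM on a log axis for PCYT2, APC, CTNNB1 and the 18 genes that were called in at least 1 comparison, with 1 point per library and 2 libraries per group. The shPcyt2-1 libraries of DKK3, at 0.979 and 1.07 FPKM, stand apart from the other 4, and CCND1 forms 3 separate pairs.

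Among the target genes, cyclin D1 moved in opposite directions with the hairpins. CCND1, which drives entry into S phase (ENSG00000110092, chromosome 11 of GRCh38, 69641087 to 69654474), was at 132 and 134 FPKM with shNT, 96.8 and 97.6 FPKM with shPcyt2-1 and 199 and 196 FPKM with shPcyt2-2. The 3 pairs were tight and did not overlap. CCND1 fell by 0.45 with shPcyt2-1 (standard error 0.053, limma adjusted p = 0.00121) and rose by 0.57 with shPcyt2-2 (limma adjusted p = 0.00121), and the hairpins differed by 1.02 (limma adjusted p = 2.12e-05). On the linear scale the mean with shPcyt2-2 was 2.03 times that with shPcyt2-1. CCND1 shares exon positions with LTO1 on the opposite strand, whose mean level was 6.96 FPKM. The 3 D-type cyclin genes together gave 182 and 184 FPKM with shNT, 163 and 163 FPKM with shPcyt2-1 and 251 and 250 FPKM with shPcyt2-2. CCND1 made 72.5% of this sum with shNT, 59.7% with shPcyt2-1 and 78.7% with shPcyt2-2 (means of 2 libraries), while CCND2 made 17.7%, 28.3% and 13.7%.

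SOX4, a transcription factor raised in many cancers, went the other way from CCND1. SOX4 was at 60.7 and 65.3 FPKM with shNT, 79.8 and 83.4 FPKM with shPcyt2-1 and 55.1 and 48.8 FPKM with shPcyt2-2, and the pairs did not overlap. It rose by 0.37 with shPcyt2-1 (standard error 0.076, limma adjusted p = 0.00939), and was lower by 0.64 with shPcyt2-2 than with shPcyt2-1 (limma adjusted p = 0.000602). It fell by 0.27 with shPcyt2-2 below shNT (limma adjusted p = 0.0462), a call lost on leaving out any library other than shNT replicate 1 (-0.36 to -0.19, limma adjusted p between 0.0576 and 0.182). ASCL2, the stem cell regulator of the intestinal crypt, was at 57.9 and 73.2 FPKM with shNT, 49.1 and 47.8 FPKM with shPcyt2-1 and 59.3 and 52.2 FPKM with shPcyt2-2. ASCL2 fell by 0.42 with shPcyt2-1 (limma adjusted p = 0.021), a call lost without shNT replicate 2 or either shPcyt2-1 library (-0.44 to -0.25, limma adjusted p between 0.0505 and 0.0864), and the value was -0.16 once the trend with GC content and length had been taken out. PROX1, a homeobox factor, was at 19.5 and 17.9 FPKM with shNT, 24.7 and 24.3 FPKM with shPcyt2-1 and 23.0 and 18.0 FPKM with shPcyt2-2. PROX1 rose by 0.38 with shPcyt2-1 (limma adjusted p = 0.0326), a call lost without shNT replicate 2 or either shPcyt2-1 library (0.32 to 0.39, limma adjusted p between 0.0747 and 0.14). MYC was at 268 and 272 FPKM with shNT, 246 and 257 FPKM with shPcyt2-1 and 260 and 280 FPKM with shPcyt2-2, and SOX9 was between 66.6 and 80.4 FPKM. Neither MYC nor SOX9 was called.

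SP5, a transcription factor gene that beta-catenin activates directly, was at 92.0 and 115 FPKM with shNT, 82.8 and 82.3 FPKM with shPcyt2-1 and 96.1 and 91.5 FPKM with shPcyt2-2. SP5 fell by 0.31 with shPcyt2-1 (limma adjusted p = 0.0372). The call was lost on leaving out any library other than shNT replicate 1 (-0.32 to -0.16, limma adjusted p between 0.0588 and 0.131), and the value was -0.084 once the trend with GC content and length had been taken out. Letters bound by TCF/LEF factors, CTTTGAT or CTTTGAA on either strand, were searched in RefSeq promoters (GRCh38.p14, from 250 bases before to 50 bases after the start), which were matched for 22 of the 37 genes. They were found in 2 of the 22 (9.09%), and in 6.98% of 27305 promoters of that length. The 2 genes are SP5, with 3 matches, and DKK1, with 1. Both promoters are shown since SP5 fell and DKK1 rose with shPcyt2-1, each 5′ to 3′ on the plus strand, chr2:170715087-170715386 for SP5 and chr10:52314031-52314330 for DKK1, with the matches in capitals.
SP5: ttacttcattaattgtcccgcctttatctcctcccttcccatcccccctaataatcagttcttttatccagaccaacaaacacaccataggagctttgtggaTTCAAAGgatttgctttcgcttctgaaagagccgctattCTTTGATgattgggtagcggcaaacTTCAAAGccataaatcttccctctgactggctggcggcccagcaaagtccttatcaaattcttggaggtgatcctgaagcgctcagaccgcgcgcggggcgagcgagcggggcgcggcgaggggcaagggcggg
DKK1: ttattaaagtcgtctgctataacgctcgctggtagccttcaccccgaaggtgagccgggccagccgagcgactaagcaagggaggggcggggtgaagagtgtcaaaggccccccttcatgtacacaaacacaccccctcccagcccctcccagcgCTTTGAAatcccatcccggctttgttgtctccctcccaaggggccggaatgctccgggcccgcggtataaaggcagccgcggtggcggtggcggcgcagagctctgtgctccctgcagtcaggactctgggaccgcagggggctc
Counted from the gene's start, the matches in SP5 begin at -148, -109 and -84, and the match in DKK1 at -95. A match describes these letters and is not a measured binding site.

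Of 29 other genes known as beta-catenin targets in colorectal cells, 25 were tested, and 8 rose and 2 fell with shPcyt2-1 (40%, against 26.7% of all tested genes). With shPcyt2-2, 3 rose and 1 fell (16%, against 12.5%), and 7 were higher and 9 lower with shPcyt2-2 than with shPcyt2-1 (64%, against 27.2%). ENC1, an actin-binding protein gene, was at 1.83 and 1.23 FPKM with shNT, 5.14 and 5.65 FPKM with shPcyt2-1 and 1.23 and 0.945 FPKM with shPcyt2-2. ENC1 rose by 1.35 with shPcyt2-1 (limma adjusted p = 0.000708) and was lower by 1.62 with shPcyt2-2 than with shPcyt2-1 (limma adjusted p = 0.000137). Both shPcyt2-1 libraries of ENC1 were above the other 4. CD24, a surface glycoprotein gene, was at 8.14 and 8.43 FPKM with shNT and between 11.8 and 14.9 FPKM in the 4 knockdown libraries, rising by 0.73 with shPcyt2-1 (limma adjusted p = 0.00209) and by 0.59 with shPcyt2-2 (limma adjusted p = 0.0101). The second call was lost without shPcyt2-2 replicate 1 (0.46, limma adjusted p = 0.0827). CLDN1, a tight junction gene, rose by 0.40 with shPcyt2-2 (limma adjusted p = 0.0179), a call lost without shNT replicate 2 or shPcyt2-2 replicate 1 (0.32 to 0.37, limma adjusted p between 0.0797 and 0.13).

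FGFBP1, which releases growth factors from the matrix, was at 0.729 and 0.808 FPKM with shNT, 0.537 and 0.738 FPKM with shPcyt2-1 and 1.81 and 2.09 FPKM with shPcyt2-2. The shPcyt2-2 libraries were the highest, with a rise of 0.74 over shNT (limma adjusted p = 0.00772, and 0.0559 without the expression limit). ID2, an inhibitor of helix-loop-helix factors, differed by 0.70 between the hairpins (limma adjusted p = 0.00249), and fell by 0.36 with shPcyt2-1 (limma adjusted p = 0.0441), a call lost without shNT replicate 2, shPcyt2-1 replicate 1 or either shPcyt2-2 library (-0.36 to -0.25, limma adjusted p between 0.0587 and 0.302). JAG1, a Notch ligand gene, was lower by 0.50 with shPcyt2-2 than with shPcyt2-1 (limma adjusted p = 0.00297). It fell by 0.34 below shNT with shPcyt2-2 (limma adjusted p = 0.0319), a call lost on leaving out any 1 of the 6 libraries (-0.38 to -0.31, limma adjusted p between 0.0564 and 0.125). ETS2 fell by 0.35 with shPcyt2-1 (limma adjusted p = 0.0154), a call lost without shNT replicate 2 or shPcyt2-1 replicate 1 (-0.33 to -0.29, limma adjusted p between 0.0629 and 0.141). EPHB3, a crypt receptor gene, differed by 0.50 between the hairpins (limma adjusted p = 0.0193), a call lost without shPcyt2-1 replicate 1 or either shPcyt2-2 library (0.45 to 0.53, limma adjusted p between 0.0661 and 0.101). Among 7 tested genes of planar polarity, SCRIB fell by 0.48 with shPcyt2-1 (limma adjusted p = 0.0495), a call lost without any of 4 libraries, and no other was called in that comparison (14.3%, against 26.7% of all tested genes).

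Over the 121 other pathway genes, 94 were tested. With shPcyt2-1, 17 rose and 17 fell (36.2% called, against 26.7% of all tested genes). With shPcyt2-2, 5 rose and 3 fell (8.51%, against 12.5%). Between the hairpins 25 were higher and 14 lower with shPcyt2-2 (41.5%, against 27.2%). Their median log2 fold changes were -0.012, 0.073 and 0.076 in these comparisons. CDX1 stands both among these targets and among the epithelial markers.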

How the data were processed

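RNA-Seq was run on SW480 cells, 2 libraries for each of 3 groups. The authors deposited 1 table per library of Ensembl identifiers and a normalized value, taken here as FPKM from its sums and decimals (it may be TPM of a subset of genes). The labels name both an NEBNext Ultra and a SMARTer kit and do not assign them to libraries, and the submitters' processing notes name GRCh38 beside the mouse builds GRCm38 and mm10. The aligner and annotation are not given in the sources used here, and the study's methods name DESeq, a count package. Groups came from the labels. Of 21539 identifiers, 115 repeated within a library were summed and 1143 groups with identical values were merged. A gene that is not listed in a library was set to 0.

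Symbols and positions came from GENCODE release 29 (GRCh38). Genes with a mean of at least 0.5 FPKM were fitted with limma 3.58.1 (R 4.3.3) on log2(FPKM + 1). The variance prior followed the mean level, and p-values were adjusted over all tested genes by the Benjamini-Hochberg method. Single hairpins and their difference came from a fit of 3 groups, and the pooled comparison from a fit of 2. The fit was tested on simulated data, with changes set in both hairpins or in 1. The 37 members and the lists of 121 other pathway genes were chosen with earlier results of these data known. Values in every library are given for PCYT2, APC, CTNNB1 and up to 16 members, those with the largest called change, and, from each list, up to 3 genes per direction and comparison are named, except 1 gene that is counted in its list and not reported here. CCND2, WNT11, AXIN1, DKK1, LRP6, BCL9 and MYC values by library or range, the CDX2, HNF4A, KRT8, KRT18, KRT19, LUM, COL1A1 and KREMEN mentions, and the LTO1, SKP1 and other overlapping genes, were added after their values were seen. The precision is limited by 2 libraries per group, and no counting interval is given since the depth is unknown. Alternatives covered the pseudocount, the expression limit, scaling, the replicate number as a block, the variance model, GC content and length, the groups in the fit and leaving out each library.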

Additional observations from a re-analysis of the deposited data

Results flagged for a closer look

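Several results differ between the 2 hairpins by a direct test, limma on shPcyt2-2 minus shPcyt2-1, in which 27.2% of all tested genes passed. Each value is a log2 difference. Higher with shPcyt2-2 among the 37 members were AXIN2 (0.35), LEF1 (0.45), FZD7 (0.55), NKD1 (0.47), NOTUM (0.78), APCDD1 (0.48), DKK3 (1.14) and CCND1 (1.02), and lower were LRP5 (-0.27) and SOX4 (-0.64). Among the ligands WNT6 (1.29), WNT10A (0.94) and WNT4 (0.78) were higher, and the Wnt carrier WLS (-0.36) was lower. Receptors with a difference included LGR6 (0.86), FZD2 (0.37), FZD10 (0.35) and RYK (-0.68). The secreted inhibitors SFRP5 (1.13) and SOSTDC1 (-0.36) went in opposite directions, and CCDC88C (-0.45) and GSK3A (-0.27) of the destruction complex list were lower. Of the nuclear regulators TLE2 (0.78), TLE1 (0.45) and SMARCA4 (0.36) were higher. The calls of WLS (-0.39 to -0.27, limma adjusted p between 0.0706 and 0.141) and TLE1 (0.33 to 0.45, limma adjusted p between 0.0799 and 0.0961) were lost without either shPcyt2-1 library or shPcyt2-2 replicate 2, and that of WLS also without the expression limit (limma adjusted p = 0.0525). The SOSTDC1 call was lost on leaving out any of the 4 knockdown libraries (-0.41 to -0.30, limma adjusted p between 0.0704 and 0.193), with a pseudocount of 0.1 and without the expression limit (limma adjusted p = 0.0693 and 0.0849). The targets FGFBP1 (0.85), ID2 (0.70) and EPHB3 (0.50) were higher, and ENC1 (-1.62) and JAG1 (-0.50) were lower. PCYT2 itself was not called between the hairpins (-0.15, limma adjusted p = 0.31). The 4 knockdown libraries were also searched together for a single outlying library in PCYT2 and the 37 members, and 0 were found. A difference between the hairpins widens the range that the search uses, so it can miss an outlying library in such genes. The shNT libraries were not searched.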

How the results depend on the processing

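The number of members called with shPcyt2-2 was 7, and it was 1 without the expression limit and 3 without the mean-variance trend. It was 4 with only the 2 groups compared in the fit, where this comparison called 1298 of all tested genes (10.2%). Over all tested genes the same comparison gave 1591 calls, 138 without the limit, 1031 without the trend, and between 125 (without shPcyt2-2 replicate 1) and 1897 with a library left out. Leaving out each library gave 7 to 18 members with shPcyt2-1, 1 to 6 with shPcyt2-2 and 8 to 12 between the hairpins. With shPcyt2-1 the 3406 calls over all genes became 1918 without the limit and between 1166 (without shPcyt2-1 replicate 1) and 3355 with a library left out, and between the hairpins the 3468 became 1680 (without shPcyt2-1 replicate 1) to 3789. Where a group was left with 1 library, that library is assumed to vary like the others. In the pooled comparison 7 members were called when the mean of the hairpins came from the fit of 3 groups, which called 2151 of all genes (16.9%), and 0 under the other settings. Among the results run under these settings, which do not include every uncalled change, a direction turned in 3 cases. DVL1 with shPcyt2-1 was 0.0073 once the GC content and length trend had been taken out, and without shPcyt2-2 replicate 1, AXIN2 and NKD1 with shPcyt2-2, which were not called, were -0.0090 and -0.0079. With each library left out in turn, AXIN2 lay between -0.0090 and 0.13 and NKD1 between -0.0079 and 0.19. That correction also ended the calls of TCF7L1 (-0.28) and DKK1 (0.20) with shPcyt2-2 and of PROX1 with shPcyt2-1 (0.26), whose directions held. Outside the members it moved CTBP1 with shPcyt2-2 to -0.18 and, with shPcyt2-1, TBL1XR1 to 0.30, CDC73 to 0.30 and SCRIB to -0.24, of which TBL1XR1 was still called. With shPcyt2-1 it also ended the calls of ROR2 (-0.25, limma adjusted p = 0.114) and DKK4 (-0.19, limma adjusted p = 0.0553). A pseudocount of 0.1 widened the changes of low genes: with shPcyt2-1 TCF7L1 was -1.07, WNT4 -1.87, TLE2 -1.66, ROR2 -0.68 and SOSTDC1 1.09, FGFBP1 was 1.24 with shPcyt2-2, and between the hairpins FZD7 was 0.90, WNT4 1.63, TLE2 1.52, TLE1 0.86 and FGFBP1 1.49, each still called. The same pseudocount ended the calls of TCF7L1 (-0.57, limma adjusted p = 0.06) and DKK1 (0.27, limma adjusted p = 0.0505) with shPcyt2-2, SCRIB with shPcyt2-1 (-0.50, limma adjusted p = 0.0519) and SOSTDC1 between the hairpins. Of the named genes outside the members, the calls with shPcyt2-1 of DKK4, CDC73, HDAC1, SCRIB and ID2 and of CTBP1 with shPcyt2-2 were lost without the mean-variance trend, and those of PPP2R5A, CDC73 and HDAC1 with median-ratio scaling. Without the expression limit ROR2, DKK4, TBL1XR1, CDC73, SCRIB and ID2 with shPcyt2-1 and WLS, FZD2, FZD10, SOSTDC1 and EPHB3 between the hairpins were not called. With only the 2 groups compared, SCRIB and ID2 with shPcyt2-1 and WNT10A and JAG1 with shPcyt2-2 were not called (limma adjusted p between 0.0587 and 0.0685). The cause of these changes was not tested. PCYT2 kept its direction and call with each hairpin under every setting run.

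The labels do not say whether libraries with the same number share a culture or a batch. Their deviations correlated at 0.0027 (shNT with shPcyt2-1), 0.063 (shNT with shPcyt2-2) and 0.19 (the 2 hairpins), which does not settle it. With the replicate number as a block, 18, 5, 10 and 0 members were called with shPcyt2-1, with shPcyt2-2, between the hairpins and in the pooled comparison, where 3887, 2041, 3877 and 0 of the 12755 tested genes were called. The block ended the calls of NOTUM and SOX4 with shPcyt2-2 and of ROR2 with shPcyt2-1 (limma adjusted p = 0.0536, 0.0534 and 0.0545). Of the 57 calls of named genes outside the members, 27 held under every setting and without any library. What 2 libraries per group and an unknown depth allow limits every comparison.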
